A study of Mus musculus with 12 samples.

Results

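Imprinted genes were examined in the medial prefrontal cortex of 2 inbred mouse strains with and without chronic restraint stress (CRS). The set is a list of 40 imprinted genes and their close neighbours from 18 clusters. A gene entered by an exact match of its name, with rows of the same name summed. By this rule 39 of the 40 were found among the 55678 gene names of the table, and 37 of them reached at least 1 TPM in at least 3 libraries, as did 16423 genes in all. Nespas was not matched by name, and H19 and Asb4 did not pass that filter. TPM is a transcript abundance corrected for length and scaled to the same total in every library.

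One strain was C57BL/6JmsSlc, called B6 here, and the other BALB/cCrSlc, called BALB/c, each with a control group and a CRS group of 3 libraries, 1 library per animal. CRS mice were held in polyethylene restrainers for 6 h a day on 21 days, and controls were handled without restraint. All mice were 9 to 10 weeks old and had gone through behavioural tests before a 1.5 mm punch of tissue was taken, and the labels do not give their sex. Libraries are named by group and animal number. Nothing in the labels says how the animals relate by litter or cage, so p-values measure the spread between these animals only. Because both strains are inbred and were not crossed, the maternal and paternal alleles cannot be told apart, and each value is the sum of both.

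Imprinted genes are expressed mainly from the allele of 1 parent, according to DNA methylation marks set in the egg or the sperm. They lie in clusters in which a methylated control region, and often a long noncoding RNA, governs several neighbours. Many act in growth, in feeding and maternal behaviour, and in neurons, and some, such as Ube3a, Grb10 and Igf2r, are imprinted differently in neurons than in other cells. In the GENCODE M21 annotation of the mouse genome build GRCm38, 31 of the 40 genes were protein coding, 9 were noncoding, and 13 lay on chromosome 7.

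From the RefSeq promoter table for GRCm38.p6, 42 promoters of 30 members were used. The member Impact was not included, although promoters of its chromosome were kept among those of all genes. The remaining members, Sgce and Cdkn1c among them, had no promoter there. Each promoter ran from 250 bases before to 50 bases after a transcript start. The hexamer TGCCGC, which the imprint-protecting factor ZFP57 recognises when its CpG is methylated, was searched on both strands. It occurred in 12 of the 42 promoters (28.6%) and in 11.6% of the 32851 promoters of all genes. Some of the 42 windows overlap and therefore repeat the same bases. The median number of CpG dinucleotides was 14 in the members' promoters and 7 in all promoters. No methylation was measured here. The promoters below belong to called genes, 3 of them with the hexamer and 3 without, and are shown 5′ to 3′ on the gene's strand, with the hexamer or its reverse complement GCGGCA in capitals. Zim1 (chr7:6696383-6696682, minus strand) held 1 copy and 20 CpGs. Nnat (chr2:157559828-157560127, plus strand) held 1 copy and 17 CpGs. For Mest, the window shown (chr6:30737800-30738099, plus strand) held 2 copies and 17 CpGs, and another Mest window (chr6:30733256-30733555) held none. Ndn (chr7:62348027-62348326), Inpp5f (chr7:128611115-128611414) and Airn (chr17:12741061-12741360), all on the plus strand, held none, with 11, 15 and 3 CpGs.
Zim1: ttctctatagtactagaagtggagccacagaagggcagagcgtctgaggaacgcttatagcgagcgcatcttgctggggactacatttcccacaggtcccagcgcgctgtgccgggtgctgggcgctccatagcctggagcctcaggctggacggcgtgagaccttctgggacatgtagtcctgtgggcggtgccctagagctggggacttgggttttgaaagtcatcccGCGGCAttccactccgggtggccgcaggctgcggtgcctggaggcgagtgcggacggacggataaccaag
Nnat: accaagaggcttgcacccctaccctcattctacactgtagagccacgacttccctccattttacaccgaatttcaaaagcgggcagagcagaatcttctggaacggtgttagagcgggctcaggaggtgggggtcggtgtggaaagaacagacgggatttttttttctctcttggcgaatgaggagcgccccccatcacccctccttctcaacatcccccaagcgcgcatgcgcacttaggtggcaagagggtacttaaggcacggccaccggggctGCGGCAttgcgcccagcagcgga
Mest: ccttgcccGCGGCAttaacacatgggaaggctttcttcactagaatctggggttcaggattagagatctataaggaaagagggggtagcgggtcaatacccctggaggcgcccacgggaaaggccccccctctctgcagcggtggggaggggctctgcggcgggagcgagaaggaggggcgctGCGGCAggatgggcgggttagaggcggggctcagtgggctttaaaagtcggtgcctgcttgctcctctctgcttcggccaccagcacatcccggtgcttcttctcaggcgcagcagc
Ndn: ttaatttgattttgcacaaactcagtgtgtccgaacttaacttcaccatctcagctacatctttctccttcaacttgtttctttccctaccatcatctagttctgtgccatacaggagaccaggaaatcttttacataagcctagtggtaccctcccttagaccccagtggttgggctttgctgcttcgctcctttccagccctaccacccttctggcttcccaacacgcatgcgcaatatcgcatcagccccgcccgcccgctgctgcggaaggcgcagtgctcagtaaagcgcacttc
Inpp5f: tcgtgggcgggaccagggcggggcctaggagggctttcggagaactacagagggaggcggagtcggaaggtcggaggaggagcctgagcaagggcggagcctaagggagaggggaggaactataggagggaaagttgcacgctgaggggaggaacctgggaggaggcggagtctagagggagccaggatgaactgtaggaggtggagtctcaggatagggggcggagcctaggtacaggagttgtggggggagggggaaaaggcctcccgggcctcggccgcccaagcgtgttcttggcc
Airn: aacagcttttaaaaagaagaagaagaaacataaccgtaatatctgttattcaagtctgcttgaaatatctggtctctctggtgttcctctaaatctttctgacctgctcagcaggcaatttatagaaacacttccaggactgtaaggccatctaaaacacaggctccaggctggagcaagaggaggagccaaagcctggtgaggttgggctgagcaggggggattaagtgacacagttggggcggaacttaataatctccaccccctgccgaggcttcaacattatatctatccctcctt

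Several facts of the libraries bear on the members. A library held 14805 to 15542 genes at 1 TPM or more, and the number of reads behind each value is unknown because TPM keeps no depth. The 18S ribosomal RNA gene took 3.97% of TPM in BALB/c CRS 12 and 0.0307% to 0.169% in the other libraries. The cortical excitatory neuron markers Slc17a7, a vesicular glutamate transporter, and Camk2a, a synaptic kinase, were present in every library, at 390.4 to 1074 TPM and 663 to 1185 TPM. The summed level of 7 striatal neuron markers ran from 189 to 2638 TPM in B6 and from 92.6 to 344 TPM in BALB/c. For 6 myelin markers it ran from 2399 to 9223 TPM in B6 and from 461 to 2949 TPM in BALB/c. In tissue of mixed cells, fewer cells of a type and less RNA per cell cannot be told apart.

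Imprinted transcripts ranged from some of the most abundant RNAs of this tissue to nearly none. Of the 39 genes, 11 averaged over 100 TPM across the 12 libraries, 19 lay between 10 and 100 TPM, 6 between 1 and 10 TPM, and 3 under 1 TPM. Gnas, which encodes the stimulatory G protein alpha subunit, was highest at a mean of 1320 TPM (987 to 1579 across libraries). Meg3, a maternally expressed noncoding RNA of the Dlk1 cluster, followed at 842 TPM (694 to 976). Snurf and Snrpn, 2 reading frames of shared transcripts of which Snrpn encodes the spliceosomal protein SmN, averaged 734 and 644 TPM, and the split of reads between them is uncertain. The snoRNA host Rian averaged 526 TPM, and Nap1l5, a nucleosome assembly protein gene within an intron of Herc3, averaged 314 TPM. At the low end, the antisense RNA Kcnq1ot1 averaged 0.869 TPM, Asb4 0.366 TPM and H19, a fetal growth-linked noncoding RNA, 0.242 TPM. H19 stayed between 0 and 0.824 TPM in all 12 libraries. Gnasas1, which RefSeq lists with the synonym Nespas and which the name rule left out, stayed at or below 0.185 TPM.

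**Figure D1:**
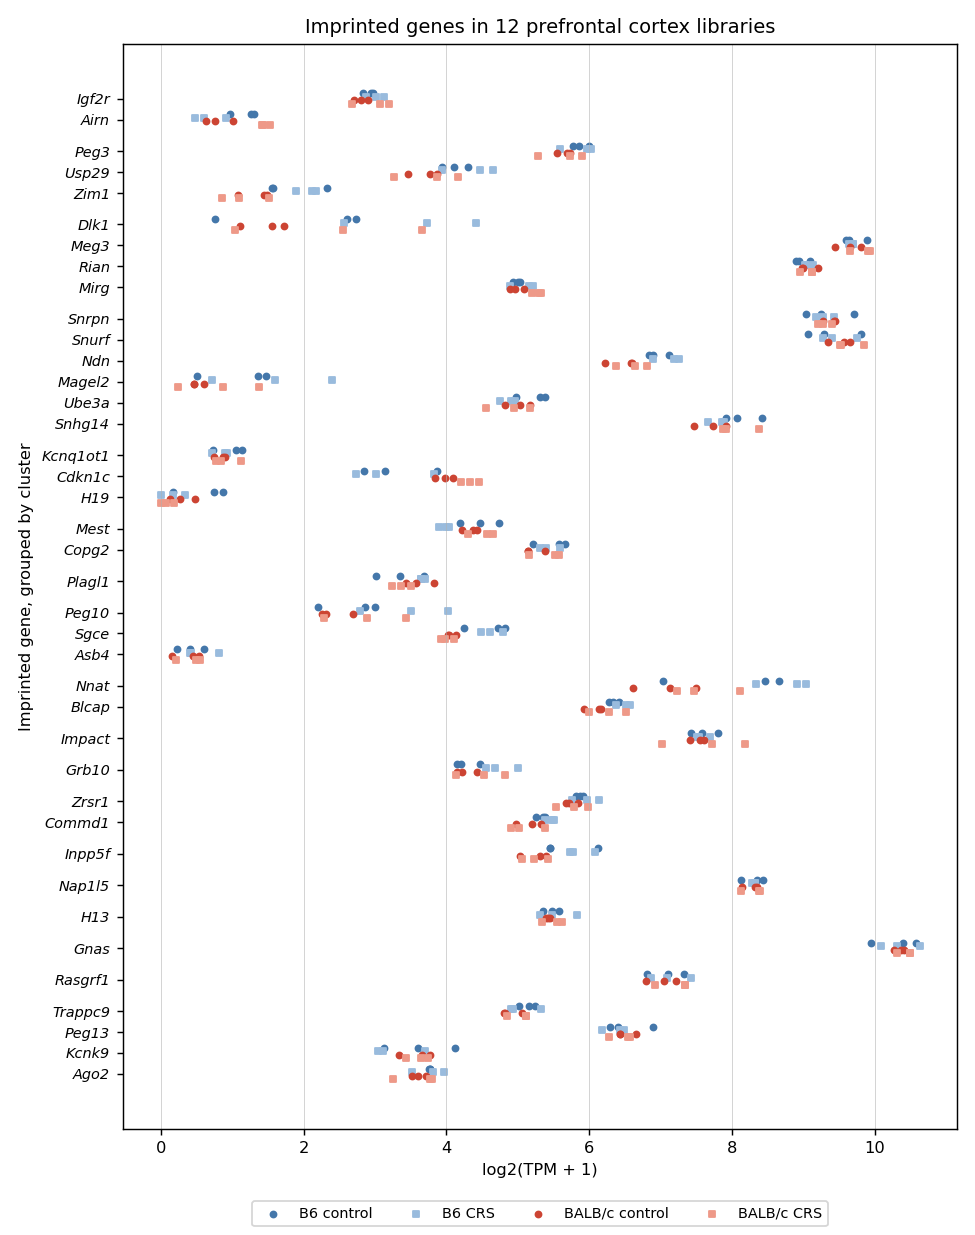
Level of each of the 39 imprinted genes found, on the log2(TPM + 1) axis, in the 12 libraries; each point is 1 library, coloured by strain and shaped by treatment, and genes are grouped by cluster. Levels run from near 0 for H19 to a mean of 1320 TPM for Gnas, and Dlk1, Magel2, Nnat and Cdkn1c are spread more widely than Meg3, Rian or Nap1l5.

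BALB/c and B6 differed in 6 of the 37 tested imprinted genes over control and CRS animals (limma on log2(TPM + 1), Benjamini-Hochberg adjusted over all genes, adjusted p under 0.05). Zim1, Ndn, Sgce, Nnat and Inpp5f were lower in BALB/c and Cdkn1c was higher. This is 16.2% of the members, against 18.4% of all genes tested (14.3% lower and 4.05% higher), so the share called was near the background. At an unadjusted p under 0.05 there were 10 members, against 32% of all genes, and the estimate was below 0 for 25 of 37 members and 63.8% of all genes. All 6 BALB/c libraries lay below all 6 B6 libraries for 4 members (Zim1, Ndn, Sgce and Inpp5f), which is a pattern that 6.94% of all genes showed in that direction and 8.95% in either direction. The members' median difference was -0.09, beside -0.08 for all genes.

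The Peg3 cluster on chromosome 7 was represented by Peg3, Usp29 and Zim1. Zim1 (chromosome 7, 6671269 to 6696450, minus strand) encodes a maternally expressed zinc finger protein. Its level in TPM was 1.98, 4.002 and 1.94 in B6 controls and 3.51, 2.70 and 3.34 in B6 CRS animals. In BALB/c it was 1.73, 1.79 and 1.12 TPM in controls and 0.811, 1.85 and 1.13 TPM after CRS. Every BALB/c library was below every B6 library, with 1 B6 control (animal 3) well above the other B6 controls. The nearest pair, B6 control 9 and BALB/c CRS 13, differed little (1.94 and 1.85 TPM). The strain difference averaged over treatments was -0.69 on the log2 scale (SE 0.17, limma adjusted p = 0.0159). It was -0.91 after CRS (SE 0.24, limma adjusted p = 0.0421) and -0.48 in controls, which did not pass (SE 0.24, adjusted p = 0.316). Of the 4 rows of Zim1, 1 was tested. The strains overlapped in that row, and it was not called over both treatments (-0.62, limma adjusted p = 0.185). Usp29, a deubiquitinase gene transcribed away from Peg3, ranged from 14.3 to 24.1 TPM in B6 and from 8.58 to 16.8 TPM in BALB/c, and its difference of -0.50 did not pass (limma adjusted p = 0.0545). For Peg3, a paternally expressed zinc finger gene linked to maternal behaviour, the ranges were 47.1 to 63.98 TPM and 37.7 to 58.7 TPM, and the difference was -0.22 (95% interval -0.47 to 0.03). In controls alone, all 3 of these genes had BALB/c libraries below the B6 libraries.

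In the Snrpn cluster, which corresponds to the human Prader-Willi and Angelman region, Ndn was the gene called. Ndn (chromosome 7, 62346569 to 62350262, plus strand) encodes necdin, a paternally expressed MAGE family protein of postmitotic neurons. Its level was 118, 138 and 113 TPM in B6 controls and 152, 118 and 145 TPM in B6 CRS animals. BALB/c controls had 94.6, 96.1 and 73.8 TPM and BALB/c CRS animals 81.8, 98.6 and 111 TPM. The BALB/c libraries all lay below the B6 libraries, and the nearest pair, B6 control 9 and BALB/c CRS 15, differed little. The averaged difference was -0.49 (SE 0.11, limma adjusted p = 0.00780), with nearly equal estimates of -0.48 in controls and -0.51 after CRS, neither of which passed by itself (limma adjusted p = 0.0953 and 0.0594). Snrpn and Snurf gave differences of 0.03 (95% interval -0.20 to 0.25) and 0.15 (-0.14 to 0.43), and Ube3a, a ubiquitin ligase gene expressed from the maternal allele in neurons, gave -0.10 (-0.36 to 0.16). Magel2, another MAGE family gene, was low and variable, at 0.423 to 4.27 TPM in B6 and 0.177 to 1.58 TPM in BALB/c. Its difference was -0.68, which did not pass (limma adjusted p = 0.131).

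Snhg14, the long host RNA that runs antisense through Ube3a in neurons, showed no difference in its gene sum (-0.09, 95% interval -0.35 to 0.17), while 2 of its 13 tested rows did. The table holds several rows per gene, apparently transcripts, that carry only the gene's name, so the isoform of a row is not identified. Counting rows of this gene from the top of the table, row 5 averaged 4.74 TPM over the 6 B6 libraries and 1.19 TPM over the 6 BALB/c libraries (-1.41, SE 0.15, limma adjusted p = 2.84e-04 over all 46000 rows tested). Row 9 averaged 4.10 TPM in B6 and 0.365 TPM in BALB/c (-1.92, SE 0.24, limma adjusted p = 6.84e-04). In both rows every BALB/c library was below every B6 library. These rows are a small part of a gene whose sum ran from 176 to 342 TPM. Rows 8, 10 and 11, at higher levels, were not called (limma adjusted p = 0.0733, 0.482 and 0.235). In each of them BALB/c CRS 12 lay above all B6 libraries, and the other BALB/c libraries lay below them all. Rows 3 and 4, also at higher levels, gave 0.15 and 0.17 and were not called. Across all members 9 of 212 rows were called (4.25%, against 6.05% of all rows), 2 higher and 7 lower in BALB/c (1.68% and 4.37% of all rows), and the other called rows belonged to Ndn, Cdkn1c, Sgce, Nnat and Inpp5f.

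Cdkn1c was the only member called higher in BALB/c over both treatments. Cdkn1c (chromosome 7, 143458339 to 143461050, minus strand) encodes a maternally expressed inhibitor of cyclin-dependent kinases that restrains growth. In B6 its level was 7.77, 13.6 and 6.17 TPM in controls and 7.05, 13.2 and 5.62 TPM after CRS. The BALB/c values were 14.7, 13.3 and 16.1 TPM in controls and 17.4, 20.9 and 19.03 TPM after CRS. The B6 values were split, with B6 control 3 and B6 CRS 13 near the BALB/c controls and the other B6 libraries at or below 7.77 TPM, so the control groups overlapped and the CRS groups did not. The averaged difference was 0.92 (SE 0.20, limma adjusted p = 0.00866), and it was 1.14 after CRS (SE 0.28, adjusted p = 0.0305) and 0.69 in controls (SE 0.28, adjusted p = 0.214). Of its 5 tested rows, 2 were called, both higher in BALB/c (0.86 and 0.93). Kcnq1ot1, the paternally expressed RNA that silences Cdkn1c on the same chromosome in other tissues, stayed between 0.651 and 1.21 TPM, with a difference of -0.03 (95% interval -0.32 to 0.25).

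Sgce had the lowest limma adjusted p of all members in controls and over both treatments. After CRS it shared the lowest value with Airn, to the digits given. Sgce (chromosome 6, 4674350 to 4747207, minus strand) encodes epsilon-sarcoglycan, whose loss on the paternal allele causes a movement disorder in humans. It measured 27.3, 25.4 and 18.03 TPM in B6 controls and 23.3, 26.7 and 21.4 TPM in B6 CRS animals. The BALB/c levels were 15.2, 16.6 and 15.3 TPM in controls and 14.2, 16.2 and 14.9 TPM after CRS. The BALB/c libraries were narrowly spread and all lay below the lowest B6 library, B6 control 9. The averaged difference was -0.58 (SE 0.10, limma adjusted p = 0.00300), and it was -0.62 after CRS (SE 0.15, adjusted p = 0.0268) and -0.54 in controls (SE 0.15, adjusted p = 0.0632). Its divergent neighbour Peg10, a gene derived from a retrotransposon, gave -0.42 (95% interval -0.94 to 0.11).

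Nnat and Inpp5f were lower in BALB/c as well. Nnat (chromosome 2, 157560078 to 157562522, plus strand) encodes neuronatin, a small membrane protein of the endoplasmic reticulum, and lies within an intron of Blcap on the other strand. The B6 controls held 353, 404 and 130 TPM and the B6 CRS animals 478, 323 and 526 TPM, against 139, 179 and 96.99 TPM and 149, 177 and 276 TPM in the BALB/c groups. B6 control 9 stood with the BALB/c libraries, so the control groups overlapped, while the CRS groups did not. The averaged difference was -1.06 (SE 0.28, limma adjusted p = 0.0205), and Blcap, expressed from both alleles in most tissues, gave -0.24 (95% interval -0.44 to -0.04), which did not pass (limma adjusted p = 0.0871). Inpp5f (chromosome 7, 128611328 to 128696425, plus strand) encodes an inositol phosphatase with a brain transcript that is imprinted. It measured 68.96, 42.5 and 42.9 TPM in B6 controls, 66.9, 51.9 and 53.8 TPM in B6 CRS animals, 38.5, 41.1 and 31.6 TPM in BALB/c controls and 32.2, 36.4 and 41.7 TPM in BALB/c CRS animals. The 6 libraries of each strain did not overlap, although B6 control 3 and 9 were close to the highest BALB/c libraries, and the averaged difference was -0.53 (SE 0.13, limma adjusted p = 0.0167).

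The summed striatal and myelin markers were higher in most B6 than BALB/c libraries, and with the striatal score as a term in the model no member was called over both treatments (all genes called fell from 3021 to 520). With that term the differences were -0.08 for Inpp5f, -0.27 for Sgce, -0.34 for Nnat, -0.42 for Ndn, -0.69 for Zim1 and 1.02 for Cdkn1c (limma adjusted p from 0.151 for Cdkn1c to 0.803 for Inpp5f). Those of Inpp5f, Sgce and Nnat were thus over 1.5 times smaller than without the term, and those of Ndn, Zim1 and Cdkn1c were not. The striatal score, the mean log2(TPM + 1) of its markers, ran from 3.65 to 7.80 in B6 and from 3.21 to 4.82 in BALB/c. It can therefore be separated from strain only in part. With the myelin score, Snhg14 was the only member called (370 of all genes were), and Cdkn1c stood at 1.21 (limma adjusted p = 0.115). In B6 the score also varied between animals, and Inpp5f was highest in B6 control 2 and B6 CRS 12, the libraries with the highest striatal sums (2638 and 2144 TPM).

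**Figure D2:**
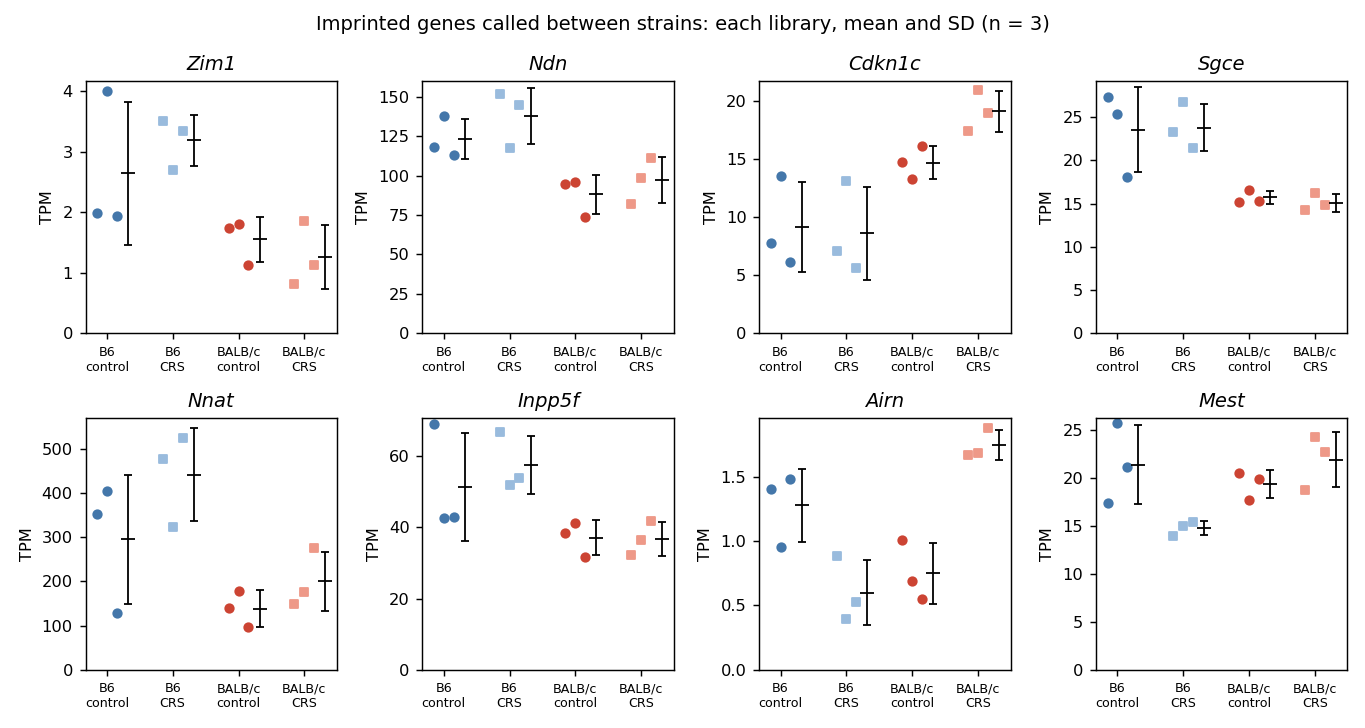
Level in TPM of the 8 imprinted genes called in at least 1 strain contrast, by group on the horizontal axis; points are libraries, and the bars give the mean and SD of 3 libraries. All 6 BALB/c libraries lie below all 6 B6 libraries for Zim1, Ndn, Sgce and Inpp5f, while Airn, Mest, Cdkn1c and Nnat separate the strains after CRS only.

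Most other members gave small strain differences with intervals that spanned 0. Over both treatments the difference was 0.07 for Gnas (95% interval -0.18 to 0.32), 0.04 for Meg3 (-0.14 to 0.22), 0.04 for Rian (-0.10 to 0.19) and -0.02 for Nap1l5 (-0.19 to 0.15). Mirg, a maternally expressed RNA that hosts miRNAs, gave 0.09 (-0.08 to 0.25). Impact, which restrains the amino acid sensor kinase GCN2, gave -0.01 (-0.35 to 0.33) over a range of 128 to 289 TPM. Rasgrf1, an exchange factor that activates Ras in neurons, gave 0.00 (-0.28 to 0.28), and H13, the signal peptide peptidase gene, gave -0.04 (-0.25 to 0.16). Grb10, an adaptor that restrains insulin receptor signalling and is expressed from the paternal allele in neurons, gave -0.13 (-0.40 to 0.15), and Plagl1, a zinc finger gene that regulates other imprinted genes, gave -0.01 (-0.27 to 0.24). In the Peg13 cluster, the noncoding Peg13 gave 0.04 (-0.21 to 0.28), Trappc9 of the trafficking complex -0.13 (-0.35 to 0.08), the potassium channel gene Kcnk9 0.15 (-0.23 to 0.52) and the argonaute gene Ago2 -0.16 (-0.40 to 0.09). Zrsr1, a splicing factor retrogene, and its host Commd1 gave -0.16 and -0.26, and the coatomer gene Copg2 gave -0.13; none of these passed (limma adjusted p = 0.271, 0.0811 and 0.420).

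In control animals alone no member was called between the strains, against 4.73% of all genes (limma). At an unadjusted p under 0.05 there were 6 of 37, against 18.7% of all genes. The estimate was below 0 for 31 of 37 members and for 67.7% of all genes. The libraries of the strains did not overlap for 8 members (Peg3, Usp29, Zim1, Ndn, Sgce, Blcap, Inpp5f and Ago2), all lower in BALB/c, and for 18.7% of all genes in that direction and 22.9% in either. The medians were -0.14 for the members and -0.10 for all genes, and scaling libraries by the median of gene ratios moved these to -0.04 and 0.00 (the latter by more than 0.1). That scaling also changed the share of lower calls among all genes from 71.2% to 54.1% in controls, from 69.2% to 53.5% after CRS and from 78% to 53.9% over both, with no reversal of direction among the called members. Without B6 control 9, which had the lowest Nnat and Sgce of the B6 libraries, 2 members were called in controls, Nnat and Sgce. Calls among all 16423 genes rose as well without that library, from 777 to 1378.

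After CRS, 5 of 37 members were called between the strains (13.5%, against 7.7% of all genes). Airn, Cdkn1c and Mest were higher in BALB/c (2.37% of all genes) and Sgce and Zim1 lower (5.33% of all genes). At an unadjusted p under 0.05 there were 10 members, against 23.8% of all genes, and the estimate was below 0 for 21 of 37 members and 58.7% of all genes. The libraries of the strains did not overlap for 9 members, 3 higher and 6 lower, against 29.3% of all genes (9.29% higher and 20% lower). The count changed when single libraries were left out, as did that of all genes. It was 1 without B6 CRS 12, 13 or 14 or without BALB/c CRS 12 or 13, 0 without BALB/c CRS 15, and 3 without BALB/c control 5 or 9, which enter only through the shared spread. Among all genes, calls fell from 1264 to 539, 741 and 920 without B6 CRS 12, 13 or 14. They fell to 606, 670 and 799 without BALB/c CRS 12, 13 or 15, and to 984 and 1160 without BALB/c control 5 or 9. The 5 genes kept their direction in these fits. No member was called with the striatal or the myelin score in the model, where calls among all genes fell to 243 and 252.

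Airn (chromosome 17, 12741311 to 12860136, plus strand) is a paternally expressed noncoding RNA transcribed antisense to Igf2r, which it silences in most tissues outside neurons. It measured 1.40, 0.950 and 1.48 TPM in B6 controls and 0.880, 0.391 and 0.523 TPM in B6 CRS animals. In BALB/c it measured 1.01, 0.687 and 0.550 TPM in controls and 1.67, 1.68 and 1.88 TPM after CRS. All B6 CRS libraries lay below the B6 controls, and all BALB/c CRS libraries lay above the BALB/c controls. The strain difference was 0.79 after CRS (SE 0.19, limma adjusted p = 0.0268) and -0.38 in controls (SE 0.19, adjusted p = 0.304). Airn was near 1 TPM in all groups, as the sum of 10 rows. None of these rows by itself reached 1 TPM in at least 3 libraries, so no single row of Airn was tested. Igf2r, the receptor that takes up and degrades IGF2, was between 5.38 and 8.14 TPM in all libraries, with a strain difference over both treatments of -0.07 (95% interval -0.30 to 0.16).

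Mest (chromosome 6, 30723547 to 30748465, plus strand) encodes a paternally expressed hydrolase linked to growth. Among B6 animals it measured 17.3, 25.6 and 21.1 TPM in controls and 13.9, 15.00 and 15.3 TPM after CRS. The BALB/c levels were 20.5, 17.7 and 19.8 TPM in controls and 18.7, 24.2 and 22.6 TPM after CRS. The B6 CRS libraries were the lowest of the 12 and did not overlap with any other group. The strain difference was 0.53 after CRS (SE 0.15, limma adjusted p = 0.0467) and -0.12 in controls (SE 0.15, adjusted p = 0.714).

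**Figure D3:**
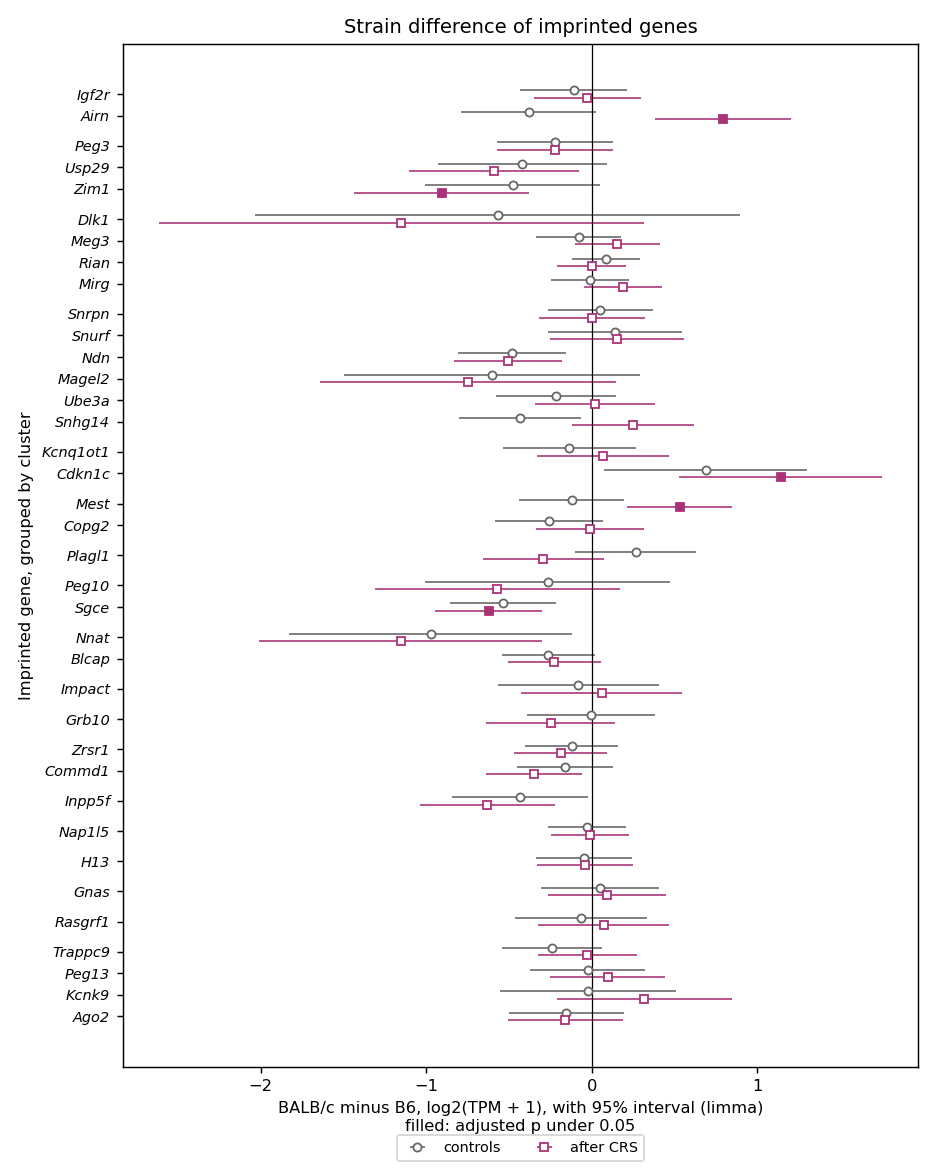
Strain difference of the 37 tested imprinted genes, BALB/c minus B6 on the log2(TPM + 1) axis, in controls (circles) and after CRS (squares); lines are 95% intervals from limma and filled symbols passed the threshold. No gene is filled in controls and 5 are after CRS (Airn, Zim1, Cdkn1c, Mest and Sgce).

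No imprinted gene passed the test for an effect of CRS itself. No member was called for CRS against control in B6 (0% of all genes), in BALB/c (0.00609% of all genes) or averaged over strains (0.00609%). At an unadjusted p under 0.05 there were 5 of 37 in B6 (4.82% of all genes), 2 in BALB/c (3.03%) and 5 averaged over strains (5.17%). The CRS libraries did not overlap with the controls for 5 members in B6 (8.33% of all genes), 4 lower (3.7%) and 1 higher (4.63%), and for 3 in BALB/c (7.39%), all higher (5.36%). The members' medians were 0.04 in B6, beside 0 for all genes, and 0.10 in BALB/c, beside 0.05.

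In B6 the member of lowest p was Mest, at -0.49 (SE 0.15, limma adjusted p = 1), with the values given above. Airn, Ube3a and Snhg14 also had all CRS libraries below the controls, and Grb10 had them above. For Grb10 the levels in TPM were 16.7, 21.1 and 17.5 in B6 controls and 30.9, 22.5 and 24.6 in B6 CRS animals, a difference of 0.47 (SE 0.18, limma adjusted p = 1), and the BALB/c groups overlapped at 17.7, 16.8 and 20.5 TPM and 16.6, 27.3 and 22.1 TPM. Averaged over strains Grb10 had the lowest p of the members, at 0.35 (SE 0.13, limma adjusted p = 0.946). Ube3a measured 38.8, 30.4 and 40.8 TPM in B6 controls and 28.9, 30.1 and 25.99 TPM in B6 CRS animals, and its groups overlapped in BALB/c.

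In BALB/c the members with all CRS libraries above the controls were Airn, Mirg and Cdkn1c. Airn had the lowest p, at 0.66 (SE 0.19, limma adjusted p = 1). Mirg measured 28.8, 33.03 and 30.1 TPM in BALB/c controls and 38.3, 39.1 and 35.8 TPM after CRS, a difference of 0.29 (SE 0.11, limma adjusted p = 1). In B6 it was 29.6, 31.1 and 31.8 TPM in controls and 28.7, 34.6 and 36.1 TPM after CRS, and the groups overlapped. In RefSeq, 10 miRNA hairpins with 19 mature miRNAs lie within Mirg, and these data measure the host RNA and not the miRNAs. Only 2 of the 19 share a seed (bases 2 to 8, in capitals below), namely miR-453 and miR-496a-5p, and miR-410-3p of the same host is shown for comparison.
miR-453: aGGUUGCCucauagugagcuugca
miR-496a-5p: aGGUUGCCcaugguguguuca
miR-410-3p: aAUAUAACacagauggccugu

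**Figure D4:**
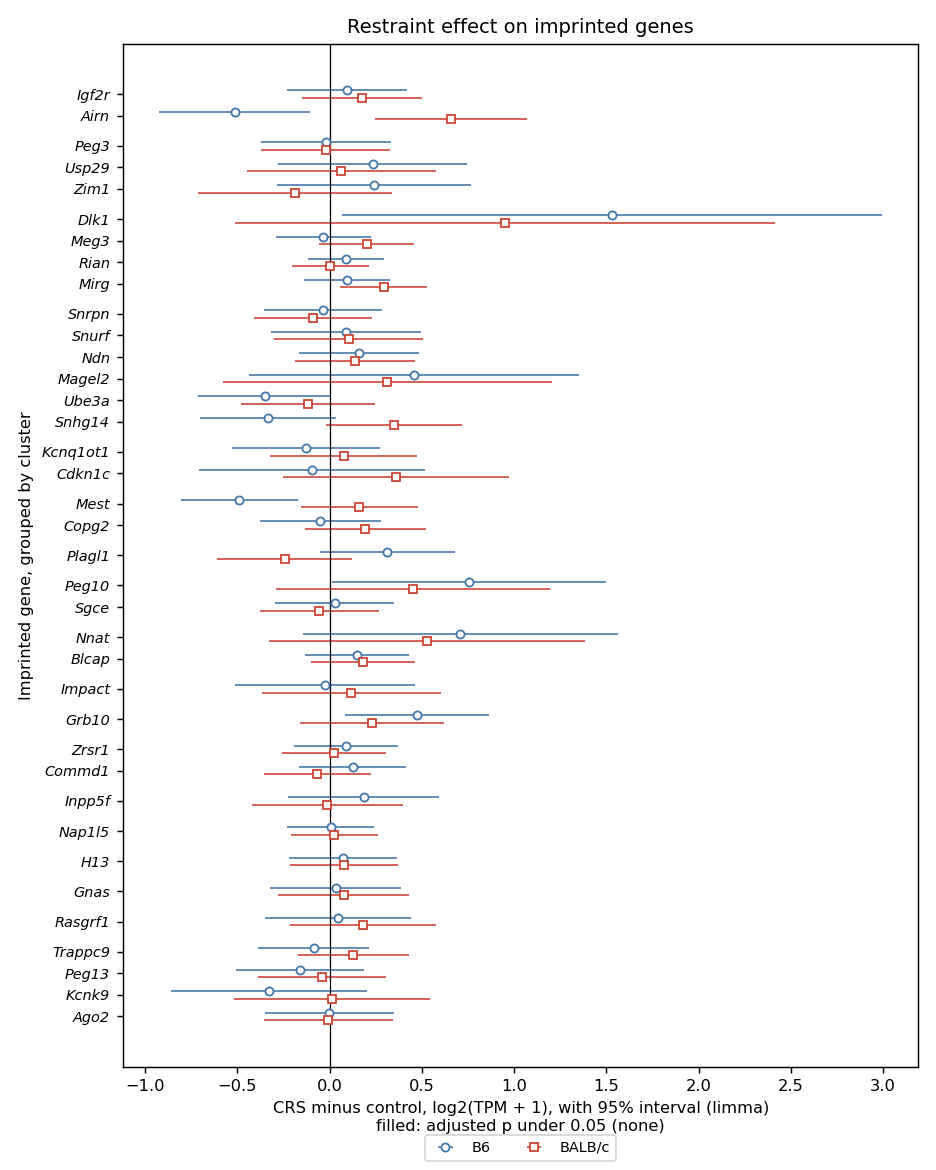
Difference between CRS and control for the 37 tested imprinted genes on the log2(TPM + 1) axis, in B6 (circles) and BALB/c (squares); lines are 95% intervals from limma. No symbol is filled, since none passed the threshold, and Airn lies on opposite sides of 0 in the 2 strains.

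The difference between the CRS effects of the strains was called for no member and for 0% of all genes (limma). At an unadjusted p under 0.05 there were 4 of 37 (Airn, Mest, Snhg14 and Plagl1), against 2.7% of all genes. Airn had the lowest p, with an interaction of 1.17 (SE 0.27, unadjusted p = 8.56e-04, limma adjusted p = 1). It was the only member whose CRS libraries stood apart from controls in opposite directions in the 2 strains, a pattern that 0.268% of all genes showed. Mest gave 0.65, Snhg14 0.68 and Plagl1 -0.56. For Snhg14 the levels were 241, 269 and 342 TPM in B6 controls, 236, 202 and 231 TPM in B6 CRS animals, 211, 176 and 241 TPM in BALB/c controls and 332, 233 and 240 TPM in BALB/c CRS animals. BALB/c CRS 12, the library with the most ribosomal RNA, held the highest of the BALB/c values.

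The ratio of 2 transcripts of a cluster in the same library is given as log2 of (TPM + 1) over (TPM + 1), with no test, for 17 pairs. The added 1 makes the ratio depend on library scaling for genes with low values, such as Airn, Zim1 and Magel2. The mean ratio of Airn to Igf2r was -1.73 in B6 controls, -2.34 in B6 CRS, -2.01 in BALB/c controls and -1.52 in BALB/c CRS animals, and CRS libraries were apart from controls in both strains, in opposite directions. Mest to its antisense neighbour Copg2 was -1.02 in B6 controls and -1.46 in B6 CRS animals without overlap, and stood at -0.88 and -0.91 in BALB/c. Snhg14 to Snrpn was -1.19 in B6 controls, above both -1.49 in B6 CRS and -1.68 in BALB/c controls without overlap. Nnat to Blcap was 1.71 and 2.28 in the B6 groups and 1.00 and 1.35 in the BALB/c groups, apart after CRS only. Strains did not overlap for 3 of 17 pairs in controls and 6 after CRS, CRS and control did not overlap for 3 in B6 and 2 in BALB/c, and no pair separated all 6 libraries of each strain. Among single genes, non-overlap had the shares given above, 22.9% and 29.3% between strains and 8.33% and 7.39% for CRS. Airn and Igf2r, Mest and Copg2, and Snhg14 and Ube3a overlap on opposite strands in the annotation. The library kit keeps strand, but whether strand was used in quantification is not given in the sources used here, so reads of such partners may not be told apart. In all, 14 members overlapped a tested gene on the other strand and 7 one on the same strand.

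Dlk1 and Peg10 varied widely between animals of a group. Dlk1, a Notch-related ligand of progenitor and some hypothalamic cells, measured 5.11, 5.68 and 0.690 TPM in B6 controls, 20.4, 4.90 and 12.2 TPM in B6 CRS animals, 2.30, 1.96 and 1.17 TPM in BALB/c controls and 1.06, 4.88 and 11.6 TPM in BALB/c CRS animals. Its CRS difference averaged over strains was 1.24 with a wide interval (95% interval 0.21 to 2.28, limma adjusted p = 0.946). Peg10 measured 6.98, 6.27 and 3.58 TPM, 15.2, 5.94 and 10.4 TPM, 5.47, 3.95 and 3.76 TPM and 3.89, 6.37 and 9.81 TPM in the same order of groups, and its averaged CRS difference was 0.60 (0.08 to 1.13, limma adjusted p = 0.946). Both genes were highest in B6 CRS 12, B6 CRS 14 and BALB/c CRS 15 and lowest in B6 control 9. The same 3 libraries had the highest sums of the 6 septal and hypothalamic markers, 101, 47.9 and 41.3 TPM, and B6 control 9 had 6.64 TPM. The ranges of that sum were 6.64 to 40.0 TPM in B6 controls, 23.9 to 101 TPM in B6 CRS, 6.35 to 10.3 TPM in BALB/c controls and 7.62 to 41.3 TPM in BALB/c CRS animals. Zic1 and Zic4 carried most of it. Of the hypothalamic peptide genes, Oxt was at 5.55 TPM and Avp at 2.05 TPM in B6 CRS 12, each its highest value of the 12 libraries. Pmch was highest in BALB/c CRS 15 at 1.73 TPM but lowest in B6 CRS 12 at 0.137 TPM. In B6 CRS 14, Oxt was at 0 TPM and Avp at 0.428 TPM, and Hcrt was under 1 TPM in all libraries. The peptide genes were thus not jointly high in the 3 libraries. Whether septal or hypothalamic tissue had a part in the values of Dlk1, Peg10, Magel2 and Nnat was not tested.

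**Figure D5:**
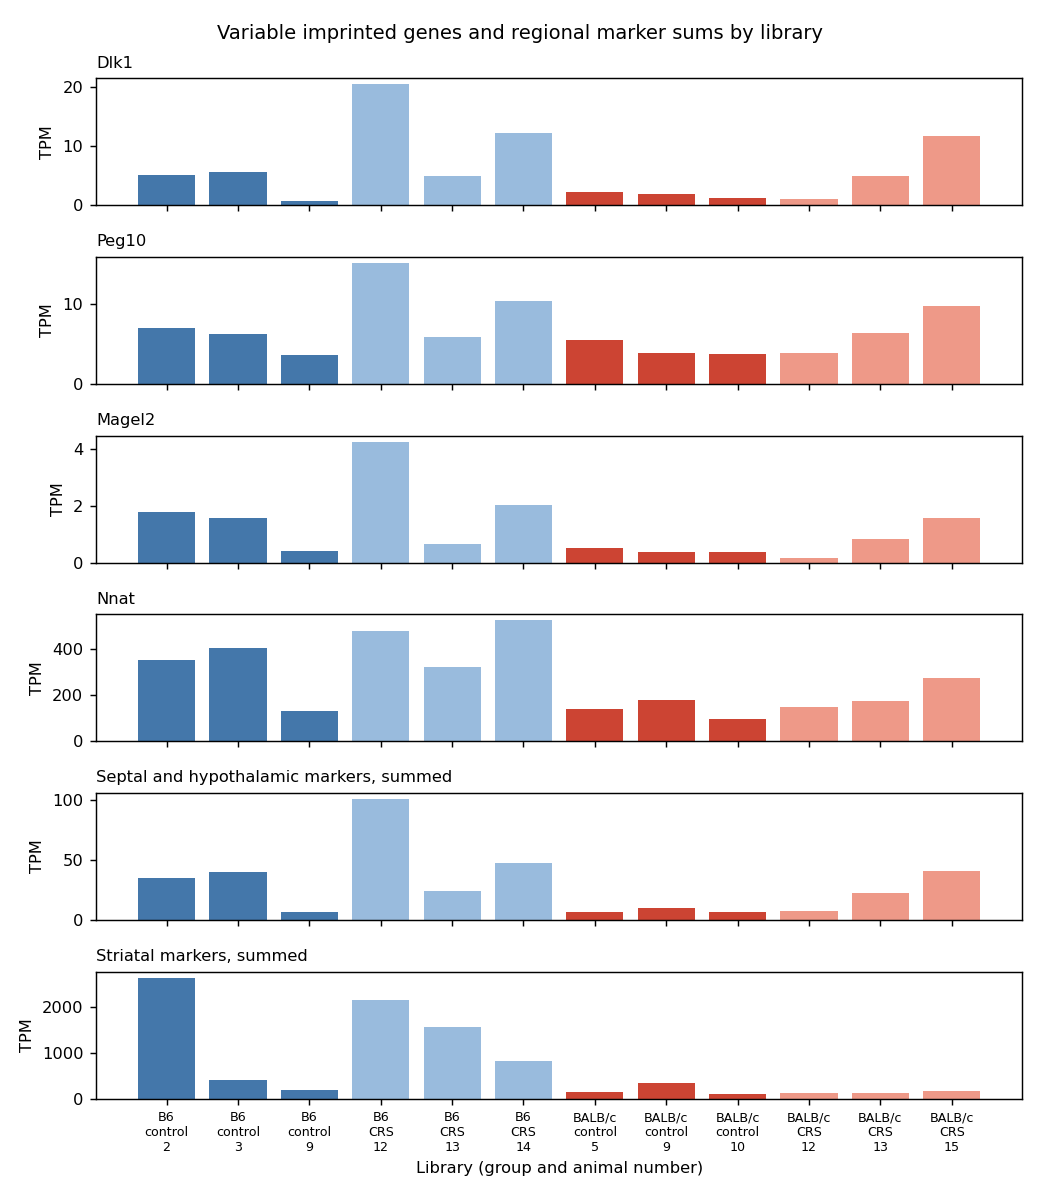
Level in TPM (vertical axis) of Dlk1, Peg10, Magel2 and Nnat, and the summed TPM of septal and hypothalamic and of striatal markers, in each of the 12 libraries (bars, by group and animal number). Dlk1, Peg10 and the septal and hypothalamic sum are highest in B6 CRS 12, and B6 control 9 is low for all 4 genes and for that sum.

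A further list of 35 imprinted genes outside the set, compiled with earlier results of these data known, gave 19 tested genes. Over both treatments 8 of them were called between the strains (42.1%, against 18.4% of all genes), 7 lower in BALB/c and 1, Osbpl5, higher (0.46). Those lower were Ddc (-1.27), which makes dopamine and serotonin, Igf2 (-1.08), the growth factor cleared by Igf2r, the adaptor gene Gab1 (-0.93), Th (-0.87), which makes the dopamine precursor, Pon2 (-0.75), Atp10a (-0.58) and Cd81 (-0.46). Pon2, a neighbour of Sgce and Peg10, was at 31.5, 22.9 and 24.8 TPM and 30.9, 23.99 and 26.2 TPM in the B6 groups and at 15.6, 14.8 and 18.3 TPM and 13.6, 16.3 and 13.7 TPM in the BALB/c groups, with no overlap. In controls 3 of the 19 were called (Igf2, Pon2 and Ddc; 15.8%, against 4.73% of all genes) and after CRS 3 (Atp10a, Pon2 and Ddc; 15.8%, against 7.7%), all lower in BALB/c. With the striatal score in the model 1 of the 19, Atp10a, was called over both treatments, and with the myelin score none was (limma, 4 at an unadjusted p under 0.05). The difference of Gab1 was then -0.05 and 0.04 and that of Osbpl5 -0.05 and 0.07, so that each changed sign with 1 of the scores. The meningeal markers summed to 11.6 to 21.8 TPM in B6 controls, 11.95 to 16.2 TPM in B6 CRS, 4.85 to 11.5 TPM in BALB/c controls and 11.8 to 17.96 TPM in BALB/c CRS animals, and B6 control 3 was highest for this sum and for Igf2 (31.9 TPM). With the meningeal score, 7 of the 19 were called, Igf2 among them at -0.92 (limma adjusted p = 0.0167). Among all 16423 genes, calls went from 3021 to 520 with the striatal, 370 with the myelin and 2349 with the meningeal score. These marker terms for the list were chosen after its values were seen. Of 25 factors that set or keep imprints, 21 were tested and 3 were called over both treatments (14.3%). Eed of the Polycomb repressive complex was higher in BALB/c (0.47), and its catalytic partner Ezh2 (-0.84) and the chromatin factor Arid4a (-0.25) were lower; none was called with the striatal or the myelin score (limma, 1 of 21 at an unadjusted p under 0.05 with each), and Eed and Ezh2 were with the meningeal score. None of either list was called in a CRS contrast (limma), where an unadjusted p under 0.05 occurred for 2 of the other imprinted genes in BALB/c, 1 averaged over strains, and none in B6, and for no factor.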

How the data were processed

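RNA from a tissue punch was made into stranded mRNA libraries and sequenced from both ends (150 bp each, near 6 Gb a library), per the labels' protocols. The authors deposited TPM in 1 table of the whole series with 147902 rows, each with a gene name and no transcript identifier. The unit was read from the values, whose columns share 1 total. Reads were trimmed with cutadapt 2.9 and quantified with Salmon on GRCm38, per the submitters' processing notes, and the transcript annotation and strand setting are not given in the sources used here. GRCm38 is the genome of a B6 substrain, and the effect of that on BALB/c values was not tested.

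TPM was summed per gene name. Those reaching 1 TPM in 3 or more libraries were tested on log2(TPM + 1) in limma 3.58.1 under R 4.3.3, with 4 group means (8 residual degrees of freedom), an intensity trend and Benjamini-Hochberg adjustment over all 16423 genes (46000 rows for single rows). Differences on this scale understate changes of genes with low values. Because TPM keeps no depth, counting error is unknown and precision rests on 3 animals per group. The procedure was tested on simulated data for the strain difference over both treatments with 16423 genes, where 88% of 100 genes changed by 1 on the log2 scale and 47% of those changed by 0.5 were called. In the simulation of the strain difference in controls these shares were 67% and 13%, and after CRS they were 73% and 12%. Changes were placed only in genes of higher level, and noise was drawn independently for each gene and library. The shares therefore do not cover genes of low level, such as Airn, Zim1 and Magel2. Over both treatments 144 genes were called in the simulation and 3021 in the data. The Benjamini-Hochberg cut-off on p was therefore stricter in the simulation, and the shares do not carry over directly.

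The members, gene lists and tests were chosen with earlier results of these data known. All members were named; values in every library are given for members called in a contrast and for the member of lowest p in contrasts without a call, and Ube3a, Mirg, Snhg14, Dlk1, Peg10 and Pon2 were added after their values were seen. Alternatives were other pseudocounts, filters, scalings and spread estimates, marker scores as covariates, leaving out each library and a replicate block. Animal numbers are shared between strains by different animals; the correlation of deviations between animals of the same number was -0.242 (number 9), -0.0293 (12) and -0.0361 (13), so the numbers were not treated as pairs.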

Additional observations from a re-analysis of the deposited data

Results flagged for a closer look

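Airn, the noncoding RNA antisense to Igf2r, drew attention because CRS libraries stood apart from controls in opposite directions in the 2 strains. In B6 the CRS effect was -0.51 and in BALB/c 0.66, and in each strain the 3 CRS libraries did not overlap with the 3 controls. The interaction was 1.17 on the log2(TPM + 1) scale (SE 0.27, unadjusted p = 8.56e-04), and limma's adjusted p over all genes was 1. Airn lies near 1 TPM as the sum of 10 rows, none of which passed the filter by itself. The same opposite separation was shown by 0.268% of all tested genes.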

How the results depend on the processing

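No called member's direction reversed under any alternative run, and counts for CRS and for the interaction stayed at 0. The other alternatives not named here left the counts of called members within 1.5 times. With the striatal score in the model, members called between strains went from 0 to 1 in controls, from 5 to 0 after CRS and from 6 to 0 over both treatments. With the myelin score they went to 1, 0 and 1, and the member called in controls was Snhg14 with either score. Among all genes, calls went from 777, 1264 and 3021 to 517, 243 and 520 with the striatal score. With the myelin score the calls among all genes were 286, 252 and 370. The count of called members after CRS was 2 without the filter on low values and 3 for genes averaging at least 5 TPM, a filter that also took called rows from 9 to 5. These filters change how many genes are tested, and the cause of the changes with marker scores was not tested. Leaving out 1 library gave 0 to 2 called members in controls, 0 to 7 after CRS, 5 to 8 over both treatments, 0 to 0 for CRS and the interaction, and 5 to 15 called rows. Among all genes the same fits called 425 to 1378 in controls, 539 to 1831 after CRS and 1972 to 3787 over both treatments. Over both treatments, Nnat lost its call without BALB/c control 10 or BALB/c CRS 12 (highest adjusted p = 0.0571, limma), and the other 5 genes kept theirs in all 12 fits. Called rows fell to 5 without B6 control 3 or B6 CRS 12 and rose to 15 without B6 control 9. A replicate block, with 1 residual degree of freedom, gave 1 call after CRS and 1 over both treatments. The call after CRS was not among the 5 genes called there without the block, and the other was among the 6. A replicate block for the shared numbers only, chosen after seeing the data, left 2 after CRS and the same 6 over both. No paired analysis was possible for the CRS contrasts because control and CRS animals share no number. The averaged strain difference in the Zim1 to Peg3 log2 ratio was -0.47, and -0.78 and -0.09 with pseudocounts of 0.1 and 5. That of Magel2 to Ndn was -0.18, and -0.76 and 0.23, so its sign depended on the pseudocount. Depth is unknown, so genes near 1 TPM, such as Airn and Zim1, carry an unmeasured counting error.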
